A study of Mus musculus with 23 samples.

Results

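The genes described here are 150 late-rising genes of mouse bone marrow-derived macrophages stimulated with lipopolysaccharide (LPS), the bacterial cell wall component that Toll-like receptor 4 senses. They were chosen from 55401 genes in the wild-type libraries only. Counts were scaled to the same library total (CPM, a gene's count over all counts of its library, times a constant) and averaged over the 3 wild-type libraries of each time. The 8554 genes with a 24 h mean of at least 10 CPM were ranked by the 24 h mean plus 1 over the highest of the 0, 4 and 8 h means plus 1, and the 150 highest ratios were kept. Macrophages were grown from the marrow of mice labelled Selenow knock-out or wild-type, Selenow encoding selenoprotein W. They were left untreated (0 h) or given 100 ng/ml LPS for 4, 8 or 24 h. The knock-out groups held 3, 3, 3 and 2 libraries at 0, 4, 8 and 24 h, and the wild-type groups held 3 libraries at each time. Sex, age, number of animals and the knock-out allele are not stated in the labels, and running numbers are not shared between groups, so the p-values measure the spread between libraries that may be technical replicates.

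LPS first drives NF-kB, AP-1 and interferon-regulatory factors, which switch on cytokine and chemokine genes within hours. Later phases of the response are known to include a shift to glycolysis, amino acid and endoplasmic reticulum stress signalling, feedback inhibitors, and genes of phagocytosis, matrix turnover and repair. Genes of the late phase often depend on proteins made, or metabolites changed, during the first phase.

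Each library held 39001456 to 41819953 counted reads. Selenow itself stood at 31.7 to 63.3% of the wild-type mean of its time in 7 of the 11 libraries labelled knock-out. In the other 4, replicates 13, 16, 19 and 22 (1 at each time), it stood at 85.3, 90.9, 86.0 and 107% of that mean, and the lowest wild-type library stood at 84.5%. In Selenow these 4 libraries go against their label, so "knock-out" means the label throughout. In Hmga1b, described below, they lay with the other knock-out libraries, below every wild-type library of their time. The main counts of called genes are given with and without them. Replicate 22 is 1 of the 2 knock-out libraries at 24 h. All 10 macrophage markers were above 0 in every library, with a summed level of 13243 to 30974 CPM in knock-out and 11381 to 28311 CPM in wild-type libraries. Markers of neutrophils and their precursors summed to 17.8 to 21.5 CPM in knock-out and 6.66 to 9.41 CPM in wild-type libraries at 24 h, lower than at any earlier time. B cell markers summed to 200 to 229 CPM in knock-out and 144 to 190 CPM in wild-type libraries untreated, and to at most 1.15 and 1.37 CPM at 24 h. Stromal markers summed to 35.1, 33.3, 77.6 and 41.5 CPM in knock-out replicates 14, 17, 20 and 23, 1 at each time, and to 1.85 to 7.35 CPM in the other knock-out and 1.77 to 10.4 CPM in all wild-type libraries. The part of these cells in the results was not tested. In bulk RNA, fewer cells of a type and less RNA per cell cannot be told apart.

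The ratio that chose the genes ran from 1.84 to 15.2 in wild-type cells, with a median of 2.37, and 120 genes reached 2. These values, like every wild-type value at 24 h below, are a description, because they made the choice. Clec4n had the highest ratio, then Mmp12, Ccr1, Arg1, Mmp8, Tnfrsf23, Syn1, Flrt2, Gpat3 and Pf4. The last 3 genes inside were Smpdl3a, Kdm5b and AU022793, and the first 3 outside were Pde4dip at 1.83, Gpr35 at 1.83 and Zfp292 at 1.82, so no gap marks the boundary. Levels at 24 h were spread widely, from 10.9 to 5306 CPM with a median of 77.0 CPM, and 10 genes exceeded 1000 CPM.

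"Rising only at 24 h" describes part of the set. The highest earlier wild-type mean stood at 8 h in 93 genes, at 0 h in 43 and at 4 h in 14. The 8 h mean was over 2 times the 0 h mean in 47 genes, so these had climbed before 24 h. Earlier means all lay under 10 CPM in 32 genes. In 42 genes the 4 h mean lay more than 2-fold below the 0 h mean, and the level then came back. These counts rest on CPM alone, and no share over all genes was taken. By the same measure 40 genes fell at 4 h in knock-out cells. There the test described below called 30 lower (20%, against 33.7% of all genes tested). Every 24 h library lay above every earlier wild-type library in 129 of the 150.

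**Figure D1:**
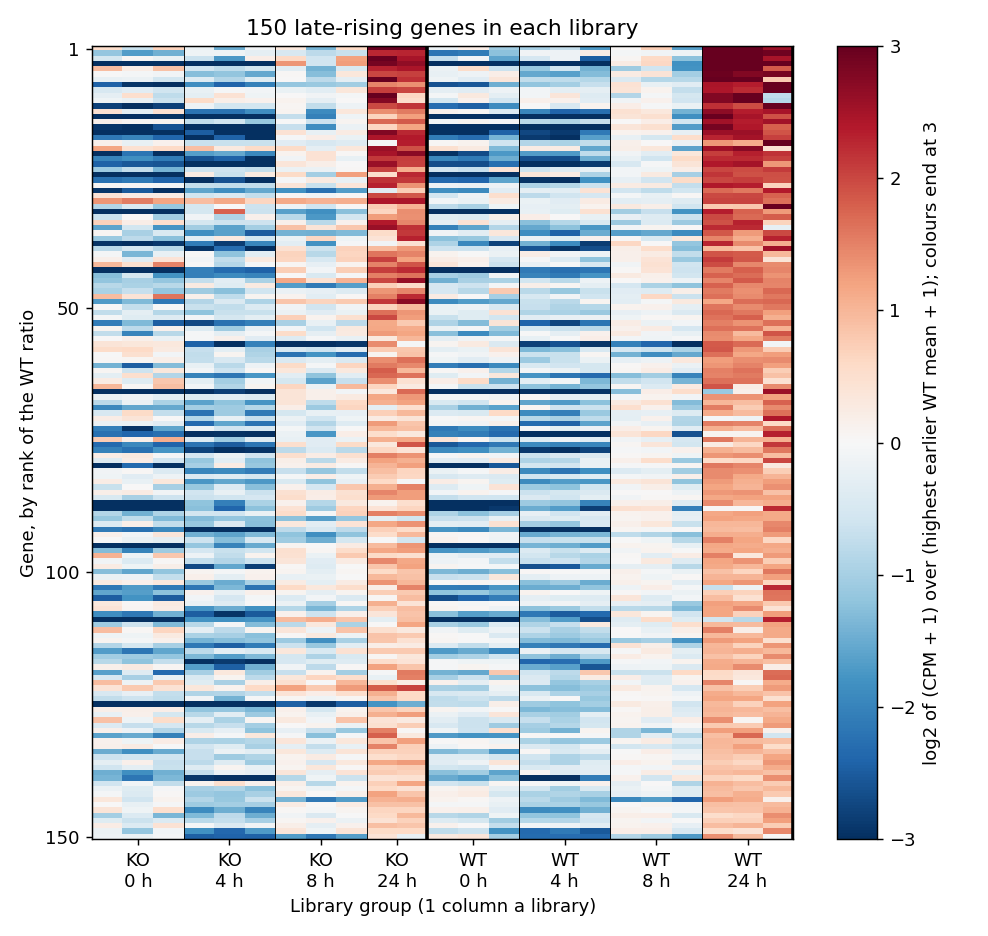
Level of each of the 150 genes (rows, in order of the wild-type ratio) in each of the 23 libraries (columns, knock-out left and wild-type right), as log2 of CPM + 1 over the highest earlier wild-type mean + 1. Red columns at 24 h stand in both genotypes; the wild-type columns show the choice itself.

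In the libraries labelled knock-out, which took no part in the choice, most of the genes were again highest at 24 h. All 150 passed the filter on low counts, within 17439 genes tested. At 24 h, 136 of the 150 were called higher than at 0 h (90.7%, against 21.9% of all genes tested), 125 higher than at 4 h (83.3%, against 28.8%) and 91 higher than at 8 h (60.7%, against 16.8%), by edgeR's quasi-likelihood test at an adjusted p under 0.05 over all genes. Among tested genes that also reached 10 CPM in wild-type cells at 24 h, the shares called higher were 32.3, 35.9 and 21.9%. Of the 150 genes, 0 were called lower by edgeR in any of these 3 comparisons, which share the 24 h libraries. Lower at an unadjusted p under 0.05 were 0 against 0 h, 0 against 4 h and 1 (Saa1) against 8 h; DESeq2 called 0 lower in each and limma-voom called 1, Saa1, against 8 h. Lower calls took 21.4, 27.3 and 17% of all genes tested and 15.6, 27.5 and 18.7% of those at 10 CPM. The median log2 fold change of the 150 was 1.97 against 0 h, 1.70 against 4 h and 0.93 against 8 h, where the median of all genes tested lay at -0.02, 0.02 and 0.01. For the first median, Saa1, with 0 counts in the 3 untreated libraries, was put at its lower bound.

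Higher at 24 h than at all 3 earlier times were 78 genes (52.0%, against 3.31% of all tested and 5.1% of those at 10 CPM). A further 52 were called in 2 of the 3 comparisons, 14 in 1 and 6 in 0. Both 24 h libraries lay above all 9 earlier knock-out libraries in 118 genes (78.7%, against 7.91% of all tested and 10.9% of those at 10 CPM). The count against 8 h depends on single libraries. It was 57 without replicate 22 and 64 without replicate 23, and the count in all 3 comparisons was then 49 and 52. With replicates 13, 16, 19 and 22 all left out, 1 library remained at 24 h, assumed to vary like the other groups. Then 100 genes were called higher than at 0 h, 94 than at 4 h, 14 than at 8 h and 11 in all 3, while the call against 8 h covered 79 of all genes. The median log2 fold change against 8 h was 1.03 in that fit and 0.93 in the fit of all 11 libraries. Of the 150 fold changes against 8 h, 144 lay above 0 in that fit, against 143 in the fit of all 11 libraries. Every library of the smaller fit, with replicate 23 at 24 h, is also in the larger one. The match in sign is therefore not an independent check.

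By 8 h many of these genes had already risen in the knock-out libraries. Against 0 h, 52 were called higher at 4 h (34.7%, against 28.7% of all tested) and 30 lower (20%, against 33.7%). At 8 h, 90 were called higher than at 0 h (60.0%, against 28.4%) and 9 lower (6.0%, against 32.1%). Among tested genes at 10 CPM, 36.1% were higher and 32.6% lower at 4 h, and 37.6% higher and 28.5% lower at 8 h. Without replicates 13, 16, 19 and 22, 38 genes were higher and 17 lower at 4 h, and 72 higher and 6 lower at 8 h.

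Ranking the knock-out means by the same ratio put 91 genes in both lists of 150 (60.7% of each). The ratio in knock-out cells had a median of 1.99 over the 150 and ran from 0.686 to 9.04, while its median over genes at 10 CPM in wild-type cells was 0.796. It exceeded 1 in 143 genes and reached 2 in 72. Of the 150, 139 reached 10 CPM in knock-out cells at 24 h and 123 stood among the first 500 of the knock-out ranking.

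**Figure D2:**
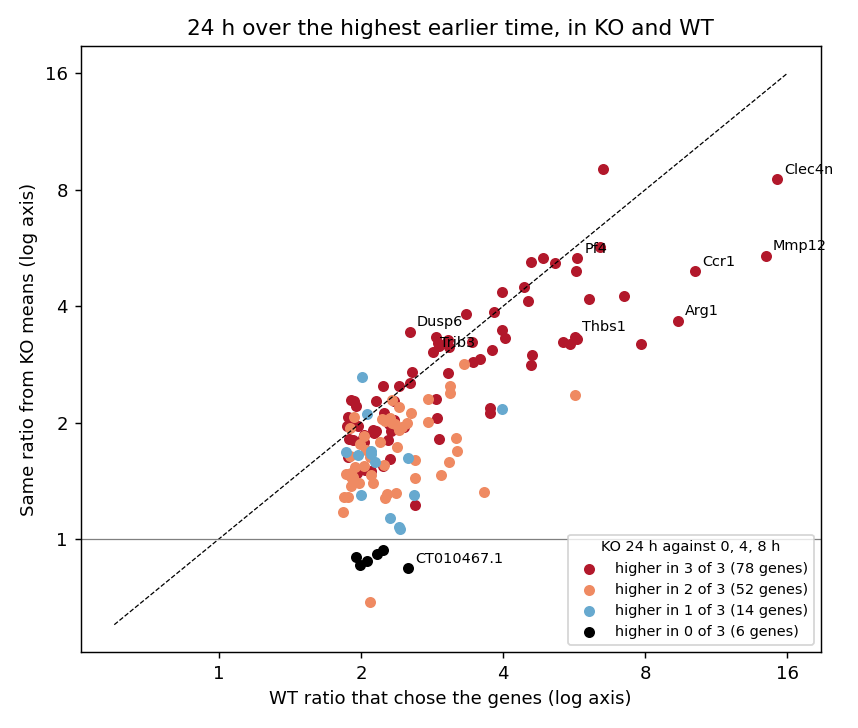
The ratio of the 24 h mean to the highest earlier mean (each plus 1 CPM) from knock-out means (vertical) against the wild-type ratio that chose the genes (horizontal), both on log2 axes, with the line of equal ratios. Colour gives how many of the 3 knock-out comparisons called the gene higher at 24 h; the 6 genes called in 0 of 3 all lie below a knock-out ratio of 1.

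Receptors of the myeloid surface included Clec4n, the gene with the highest ratio. Of 12 such genes, 10 rose against 8 h in knock-out cells and 9 in all 3 comparisons. Their median log2 fold change was 1.85 against 8 h and 4.58 against 0 h. The groups by role used here and below were assigned after the members were known. Their genes were chosen to rise late, so their counts are to be read beside the shares of the 150. Those were 90.7% higher than at 0 h, 83.3% than at 4 h, 60.7% than at 8 h and 52.0% in all 3. The shares of all genes were 21.9, 28.8, 16.8 and 3.31%. Without replicates 13, 16, 19 and 22, with 79 of all genes called against 8 h by edgeR, calls remained for 2 of the 12 receptors (Havcr2 and Cd300ld), for 2 of 10 protease and matrix genes (Mmp12 and Mmp8) and for 2 of 9 genes of transcription and chromatin (Glis3 and Klf4), and for 0 in each other group by role. Folds of some receptors were about as large there: the log2 change against 8 h was 3.08 for Clec4n, 2.20 for Sirpb1c and 2.31 for Klra2. Chemokine genes differed: Pf4 came to 0.51 and Ppbp to 0.80, against 2.24 and 2.41 in the fit of all 11 libraries. Cxcl3 came to 2.73, against 2.41. Clec4n encodes Dectin-2, a C-type lectin that binds fungal mannans and signals through the Fc receptor gamma chain. Knock-out libraries held 31.4, 13.2 and 35.1 CPM untreated, 18.5, 7.04 and 20.04 CPM after 4 h, 26.8, 7.48 and 33.2 CPM after 8 h and 268 and 200.3 CPM after 24 h. Wild-type libraries held 19.02, 24.9 and 9.72 CPM untreated, 10.2, 12.7 and 5.88 CPM after 4 h, 21.9, 36.2 and 6.28 CPM after 8 h and 432, 459.7 and 132 CPM after 24 h. Both knock-out 24 h libraries were far above all earlier ones, and wild-type replicate 12 was the lowest of its group. The log2 fold change against 8 h was 3.12 ± 0.64 (SE; edgeR adjusted p = 0.0049). Its neighbour Clec4a2, an inhibitory lectin receptor, had 226 and 118 CPM in knock-out and 163, 215 and 67.9 CPM in wild-type cells at 24 h.

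The Sirpb1 genes encode activating partners of the SIRP family that signal through DAP12. Sirpb1a, Sirpb1b and Sirpb1c, and the predicted SIRP locus Gm5150 beside them, are near copies on chromosome 3, so reads may be split among them and their levels are uncertain one by one. The 300-base windows around their annotated starts (250 bases before to 50 after, RefSeq, GRCm38.p6, minus strand) are printed to show how alike the copies are. They lie at chr3:15575016-15575315 for Sirpb1b, chr3:15848438-15848737 for Sirpb1c and chr3:15426378-15426677 for Sirpb1a. Capitals mark bases that differ from Sirpb1b where the windows overlap without gaps. There, 254 of 259 bases of Sirpb1c (98.1%) and 198 of 207 bases of Sirpb1a (95.7%) were the same as in Sirpb1b.
Sirpb1b: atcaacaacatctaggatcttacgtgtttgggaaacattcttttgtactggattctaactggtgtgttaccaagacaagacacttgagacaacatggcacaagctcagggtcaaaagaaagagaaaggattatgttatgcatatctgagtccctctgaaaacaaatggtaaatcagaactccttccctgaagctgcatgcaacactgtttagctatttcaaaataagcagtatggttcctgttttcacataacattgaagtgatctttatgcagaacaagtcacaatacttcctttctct
Sirpb1c: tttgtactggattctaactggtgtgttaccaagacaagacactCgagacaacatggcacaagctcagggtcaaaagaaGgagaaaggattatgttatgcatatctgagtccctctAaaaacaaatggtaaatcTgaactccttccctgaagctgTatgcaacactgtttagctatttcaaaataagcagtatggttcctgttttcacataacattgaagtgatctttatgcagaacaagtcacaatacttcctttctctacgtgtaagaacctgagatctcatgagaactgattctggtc
Sirpb1a: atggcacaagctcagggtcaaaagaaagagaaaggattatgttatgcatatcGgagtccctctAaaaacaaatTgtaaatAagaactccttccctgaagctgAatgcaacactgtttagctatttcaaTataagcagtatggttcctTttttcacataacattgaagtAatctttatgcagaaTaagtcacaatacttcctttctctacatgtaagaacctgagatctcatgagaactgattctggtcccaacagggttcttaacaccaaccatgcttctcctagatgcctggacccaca

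The 3 copies moved alike. In knock-out libraries Sirpb1c had 7.204, 8.11 and 5.97 CPM untreated, 3.35, 5.75 and 2.52 CPM after 4 h, 33.99, 40.1 and 30.2 CPM after 8 h and 191 and 188 CPM after 24 h. For Sirpb1a the levels were 27.3, 33.96 and 24.1 CPM at 8 h and 129.6 and 125 CPM at 24 h, and for Sirpb1b 19.2, 28.2 and 17.5 and 94.2 and 90.4 CPM. By CPM, the 4 h libraries of each copy were the lowest and the 24 h libraries the highest, with no overlap between 8 and 24 h. Fitted log2 changes at 4 h against 0 h were -0.23 for Sirpb1c, -0.32 for Sirpb1b and -0.49 for Sirpb1a, and none was called. Log2 fold changes against 8 h were 2.19 ± 0.22 (SE; edgeR adjusted p = 0.00014) for Sirpb1c, 1.84 ± 0.24 (SE; edgeR adjusted p = 0.00046) for Sirpb1b and 1.91 ± 0.27 (SE; edgeR adjusted p = 0.00063) for Sirpb1a. Wild-type cells at 24 h held 175, 201 and 147.4 CPM of Sirpb1c.

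Klra2, an inhibitory Ly49 receptor found on myeloid cells, had 70.7 and 83.03 CPM at 24 h and 13.03, 16.6 and 12.2 CPM at 8 h in knock-out cells, and 53.2, 64.7 and 57.3 CPM in wild-type cells at 24 h. Its log2 fold change against 8 h was 2.21 ± 0.36 (SE; edgeR adjusted p = 0.0013). Pilrb1 and Pilrb2, activating paired immunoglobulin-like receptors, rose by 1.504 and 1.24 against 8 h, also on the log2 scale. The call of Pilrb2 was lost without replicate 23 (0.85). Havcr2, which encodes the checkpoint receptor Tim-3, took another course: it stood at 28.6, 40.3 and 26.95 CPM untreated, 16.8, 30.4 and 14.9 CPM after 4 h, 5.43, 7.58 and 5.01 CPM after 8 h and 30.6 and 52.98 CPM after 24 h in knock-out libraries. Its 8 h libraries were the lowest, and 24 h was called higher than 8 h alone. Trem1, which amplifies Toll-like receptor signals through DAP12, and Slamf6, a homophilic receptor, were not called against 8 h, with log2 fold changes of 0.77 ± 0.48 (SE; edgeR adjusted p = 0.25) and 0.81 ± 0.45 (SE; edgeR adjusted p = 0.19).

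Chemokines and chemokine receptors included Ccr1 and Ccr3 on chromosome 9 and Ppbp, Pf4 and Cxcl3, close together on chromosome 5. All 5 rose against 8 h in knock-out cells and 3 in all 3 comparisons. Ccr1, a receptor for CCL3 and CCL5, had 29.6, 44.3 and 37.3 CPM untreated, 27.1, 12.3 and 49.5 CPM after 4 h, 65.4, 28.4 and 100.1 CPM after 8 h and 404 and 242 CPM after 24 h in knock-out libraries. At 24 h wild-type libraries held 548, 556 and 243 CPM. The 24 h levels exceeded every earlier level in both genotypes, and the fold against 8 h in knock-out cells was 2.05 ± 0.57 (SE; edgeR adjusted p = 0.02) on the log2 scale. Ccr3, the eotaxin receptor, reached 22.7 and 7.35 CPM in knock-out and 11.7, 21.4 and 3.63 CPM in wild-type cells at 24 h. Without replicate 22 these calls were lost, with log2 changes against 8 h of 1.69 for Ccr1 and 0.54 for Ccr3. Ccr1 was also lost without replicate 19 (2.06), and Ccr3 without replicate 13, 16, 18, 19, 20 or 21 (1.14 to 1.72).

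Pf4 (CXCL4) and Ppbp (the precursor of CXCL7) are best known as platelet granule chemokines and are also made by macrophages. Pf4 was steady up to 8 h and then split within each genotype. Knock-out libraries had 38.1, 65.6 and 26.98 CPM untreated, 37.4, 62.5 and 42.5 CPM after 4 h, 46.9, 42.7 and 44.2 CPM after 8 h and 444 and 71.6 CPM after 24 h. Wild-type libraries had 44.1, 56.9 and 37.9 CPM untreated, 43.6, 59.9 and 34.9 CPM after 4 h, 24.7, 44.7 and 31.6 CPM after 8 h and 321, 464 and 26.7 CPM after 24 h. Replicate 22 in knock-out and replicates 10 and 11 in wild-type cells were high, while replicate 12 stayed at or below the earlier levels. The call in knock-out cells (2.24 ± 0.55 (SE; edgeR adjusted p = 0.011) against 8 h, log2) rests on replicate 22, since the change was 0.47 without it. Replicate 23 was only just above the earlier range. Ppbp showed the same split, with 15.5 and 2.55 CPM in knock-out and 15.8, 23.2 and 0.366 CPM in wild-type cells at 24 h. Its log2 change without replicate 22 was 0.66 against 8 h and -0.0417 against 4 h. Cxcl3, a neutrophil attractant, peaked at both ends of the response: knock-out libraries held 63.2, 314 and 57.9 CPM at 4 h, 28.6, 24.9 and 37.8 CPM at 8 h and 142 and 242 CPM at 24 h. Its change was 2.41 ± 0.62 (SE; edgeR adjusted p = 0.013) against 8 h and 0.105 ± 0.61 (SE; edgeR adjusted p = 0.89) against 4 h, on the log2 scale. The call against 8 h was lost without replicate 23 (1.92).

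Among 10 genes of proteases, protease inhibitors and matrix, 7 rose against 8 h in knock-out cells and 5 in all 3 comparisons. Against 8 h, 60.7% of the 150 and 16.8% of all genes were called higher. Without replicate 22, 3 were called against 8 h, with Thbs1, Emilin2, Spint1 (1.30) and Mmp27 (1.35) lost. Mmp12, the macrophage elastase, had 56.5, 39.6 and 46.6 CPM untreated, 118, 118 and 107 CPM after 4 h, 91.6, 74.3 and 80.4 CPM after 8 h and 616 and 629 CPM after 24 h in knock-out libraries. Wild-type libraries had 27.1, 29.3 and 54.5 CPM untreated, 119, 115 and 150.7 CPM after 4 h, 124, 120.0 and 117 CPM after 8 h and 2675, 1933 and 984 CPM after 24 h. Libraries of each genotype rose far above their earlier levels, and both knock-out libraries at 24 h lay below all 3 wild-type ones. The rise against 8 h in knock-out cells was 2.67 ± 0.17 (SE; edgeR adjusted p = 2.0e-05) on the log2 scale. Mmp8, the collagenase first found in neutrophils, lies beside Mmp27 on chromosome 9. It reached 164 and 183 CPM at 24 h in knock-out cells, against 25.7, 11.6 and 23.1 CPM at 8 h, a log2 change of 2.85 ± 0.33 (SE; edgeR adjusted p = 0.00026). In CPM, Mmp8 stood lower at 4 h, with 21.3, 18.7 and 21.6 CPM, than at 0 h, with 62.5, 37.6 and 60.04 CPM. The fitted log2 change at 4 h against 0 h was -0.72 ± 0.29 (SE; edgeR adjusted p = 0.052), so no drop was called.

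Adam8, a metalloprotease that sheds surface proteins, held 2932 and 3157 CPM at 24 h and 1038, 750.4 and 1006 CPM at 8 h in knock-out cells, a log2 change of 1.46 ± 0.27 (SE; edgeR adjusted p = 0.0028). Thbs1, the adhesive matrix protein thrombospondin-1, climbed in 2 steps, with 24.5, 29.9 and 35.3 CPM at 4 h, 255, 102 and 378 CPM at 8 h and 658 and 981 CPM at 24 h in knock-out cells. Its log2 change against 8 h was 1.497 ± 0.47 (SE; edgeR adjusted p = 0.033). Wild-type cells reached 3235, 2296 and 1556 CPM at 24 h. The call of Thbs1 against 8 h was lost without replicate 19, 20, 22 or 23, with log2 changes of 1.12 to 1.79. The antisense locus Gm29233 shares 74.0% of its exon bases with Thbs1, and the reads were counted without strand, so its counts cannot be told from those of Thbs1. Serpinb2, which encodes plasminogen activator inhibitor 2, was not called against 8 h (0.92 ± 0.65 (SE; edgeR adjusted p = 0.3)), with 19.2 and 66.6 CPM at 24 h in knock-out cells. Emilin2, an elastin-associated glycoprotein, was called against 0 and 8 h but changed little on the log2 scale (0.65 against 8 h, and 0.53 without replicate 22, which ended the call).

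The windows of Mmp12 (chr9:7344147-7344446, plus strand) and Pf4 (chr5:90772185-90772484, plus strand) are printed because they hold the PU.1 core motif GAGGAAGT, read here on the opposite strand as the bases in capitals. PU.1 is the master regulator of myeloid genes. A match is a description of the letters, not a binding site. The motif was found in 9 of the 116 members with a window in the RefSeq table (7.76%, against 3.28% of 27025 genes).
Mmp12: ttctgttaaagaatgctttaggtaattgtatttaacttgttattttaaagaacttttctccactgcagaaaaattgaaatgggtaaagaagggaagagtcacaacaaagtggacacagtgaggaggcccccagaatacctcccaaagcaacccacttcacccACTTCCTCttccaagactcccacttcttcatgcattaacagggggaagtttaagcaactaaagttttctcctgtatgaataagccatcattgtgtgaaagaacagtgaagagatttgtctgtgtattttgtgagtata
Pf4: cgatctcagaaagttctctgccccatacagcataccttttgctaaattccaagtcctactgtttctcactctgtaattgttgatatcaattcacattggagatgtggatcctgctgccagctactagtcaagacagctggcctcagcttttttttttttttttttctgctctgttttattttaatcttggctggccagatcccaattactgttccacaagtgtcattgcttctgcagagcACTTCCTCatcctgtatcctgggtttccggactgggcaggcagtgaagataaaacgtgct

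Of 5 genes of lipid uptake, storage and export, all 5 rose against 8 h and 4 in all 3 comparisons. Against 8 h, 60.7% of the 150 and 16.8% of all genes were called higher. Without replicate 22, 2 were called against 8 h, and without replicate 23, 3. Gpat3, which starts triglyceride synthesis from glycerol phosphate, was low before 24 h. It had 0.779, 0.952 and 0.633 CPM untreated, 1.13, 1.44 and 1.33 CPM after 4 h, 1.18, 0.992 and 2.14 CPM after 8 h and 9.47 and 8.94 CPM after 24 h in knock-out libraries. Against 8 h its log2 change was 2.42 ± 0.28 (SE; edgeR adjusted p = 0.00028). Cd36, the scavenger receptor for oxidised lipoproteins and fatty acids, had 702 and 439 CPM at 24 h and 175, 97.2 and 148.6 CPM at 8 h in knock-out cells (1.76 ± 0.32 (SE; edgeR adjusted p = 0.0027) on the log2 scale). Soat2, a cholesterol esterifying enzyme, and Abcg1, a cholesterol exporter, rose by 1.86 and 0.64 on the same scale. Without replicate 22 both calls were lost (1.30 and 0.62), and that of Abcg1 also without replicate 19 (0.59) or 23 (0.65). Agpat4, an acyltransferase of phosphatidic acid synthesis, rose by 0.87 ± 0.29 (SE; edgeR adjusted p = 0.041), a call lost without replicate 13, 16, 18, 20, 22 or 23 (0.56 to 1.13). In knock-out cells Abcg1 dipped at 4 h, with 269, 209 and 296 CPM at 0 h, 45.3, 65.1 and 45.999 CPM at 4 h and 701 and 642 CPM at 24 h.

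Of 6 lysosomal and autophagy genes, 4 rose in all 3 comparisons (against 52.0% of the 150 and 3.31% of all genes). Ctsl, the cysteine protease cathepsin L, had 1609 and 825 CPM at 24 h and 428, 205 and 418 CPM at 8 h in knock-out cells, and 1709, 1664 and 517 CPM in wild-type cells at 24 h. Replicates 12 and 23 were the lowest of their 24 h groups. Ctsl rose by 1.53 ± 0.304 (SE; edgeR adjusted p = 0.004) against 8 h on the log2 scale, and Ctsh by 0.93 ± 0.23 (SE; edgeR adjusted p = 0.012). Vmp1, needed for autophagosome formation, and Slc11a1, the phagosomal metal transporter, rose less, by 0.72 and 0.61. Without replicate 22, Ctsl (1.03) and Ctsh (0.82) were not called, and Slc11a1 was lost when any 1 of 8 libraries was left out (0.35 to 0.69). Vmp1 was even between libraries, with 159.7 and 177 CPM in knock-out and 183, 180.4 and 164 CPM in wild-type cells at 24 h.

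The integrated stress response answers amino acid shortage and unfolded proteins through ATF4. Of its genes, Trib3, Atf5 and Ddit3 were among the 150, and all rose in all 3 comparisons. Over a whole list of unfolded protein and amino acid stress genes, 4 of 24 were higher and 5 lower than at 8 h in knock-out cells. Trib3, a pseudokinase that restrains ATF4 and AKT signalling, had 5.79, 10.4 and 4.14 CPM untreated, 3.35, 4.99 and 5.86 CPM after 4 h, 13.4, 23.6 and 15.4 CPM after 8 h and 61.96 and 48.3 CPM after 24 h in knock-out libraries. Wild-type libraries reached 79.6, 71.2 and 88.1 CPM at 24 h. The 4 h libraries were low and the 24 h libraries high, without overlap with 8 h, and the log2 change against 8 h was 1.399 ± 0.34 (SE; edgeR adjusted p = 0.011). Without replicate 22 the change was 1.26 and not called. Ddit3, which encodes the transcription factor CHOP, had 3.91, 3.05 and 3.799 CPM at 4 h, 29.97, 37.2 and 30.3 CPM at 8 h and 87.5 and 77.1 CPM at 24 h, a change of 1.08 ± 0.18 (SE; edgeR adjusted p = 0.0016) against 8 h. The annotation splits Ddit3 into a pair of overlapping entries, both among the 150. The other entry lost its call against 8 h without replicate 13, 19, 21, 22 or 23 (0.97 to 1.11). Atf5 rose by 1.496 ± 0.17 (SE; edgeR adjusted p = 0.00027).

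Both feedback inhibitors of the MAP kinase pathway rose in all 3 comparisons (against 52.0% of the 150 and 3.31% of all genes). Dusp6, the phosphatase that inactivates ERK, had 68.1, 119 and 44.97 CPM untreated, 19.8, 17.8 and 24.03 CPM after 4 h, 66.1, 35.4 and 66.4 CPM after 8 h and 275 and 261 CPM after 24 h in knock-out libraries. It was low at 4 h and highest at 24 h, with a log2 change of 2.01 ± 0.35 (SE; edgeR adjusted p = 0.0021) against 8 h. Spry2, an inhibitor of receptor tyrosine kinase signalling, changed by 2.23 ± 0.46 (SE; edgeR adjusted p = 0.0047). Both genes of arginine and polyamine metabolism also rose in all 3. Arg1, which encodes arginase 1 and splits arginine into ornithine and urea, was close to 0 up to 4 h. Knock-out libraries had 0.1704, 0.147 and 0.195 CPM untreated, 0.468, 0.341 and 0.653 CPM after 4 h, 54.8, 13.99 and 51.96 CPM after 8 h and 162 and 139 CPM after 24 h. Wild-type libraries had 0.07305, 0.048002 and 0.0253 CPM untreated, 0.525, 0.608 and 0.0968 CPM after 4 h, 25.2, 33.2 and 5.28 CPM after 8 h and 218, 197 and 207 CPM after 24 h. Replicates 9 and 20 were the lowest of their 8 h groups, and at 24 h the libraries of each genotype were close together. The log2 change in knock-out cells was 1.64 ± 0.43 (SE; edgeR adjusted p = 0.015) against 8 h and 10.05 against 0 h. Against 8 h it was 1.57 and not called without replicate 22. Smox, spermine oxidase, rose by 0.59 ± 0.19 (SE; edgeR adjusted p = 0.038) against 8 h, a call lost without replicate 13, 19, 20, 22 or 23 (0.39 to 0.76).

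**Figure D3:**
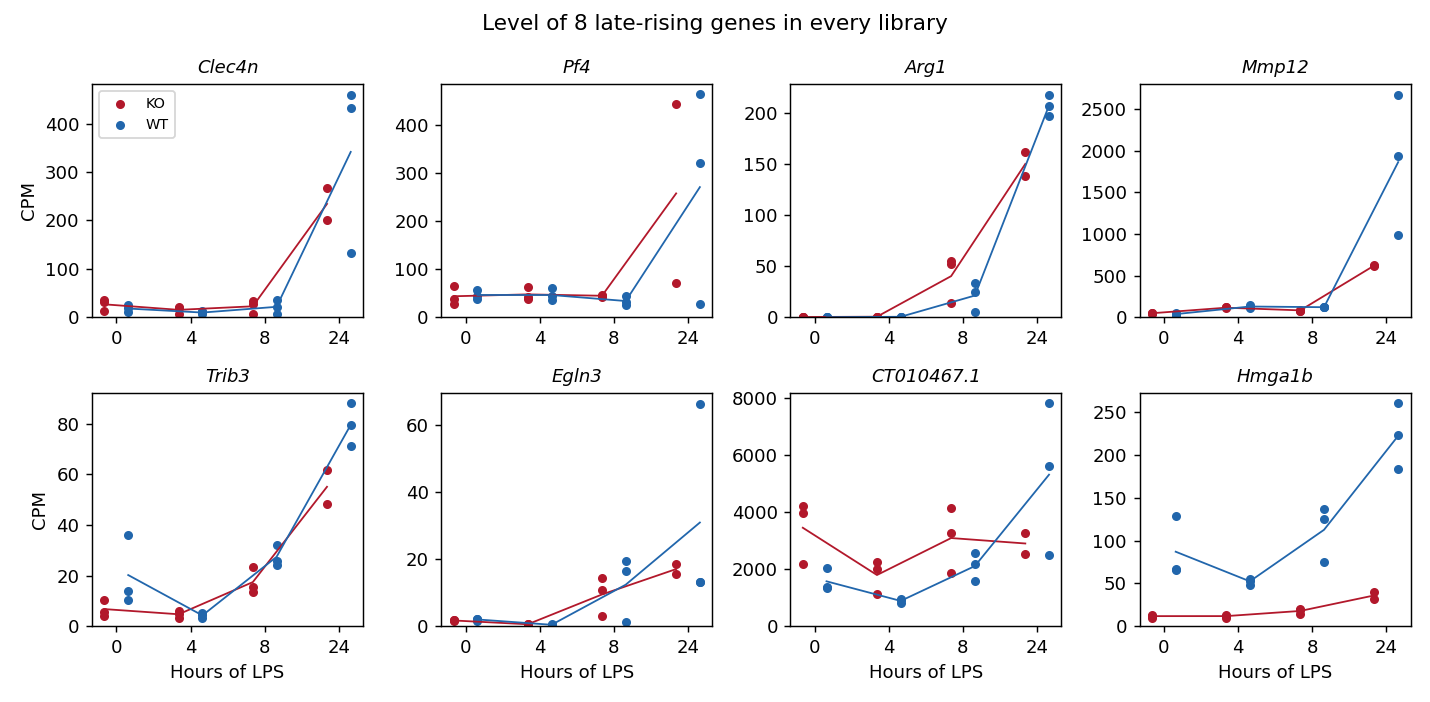
CPM in every library (points) and group means (lines) of 8 late-rising genes at 0, 4, 8 and 24 h of LPS, knock-out in red and wild-type in blue, each panel with its own axis from 0. Pf4 and Egln3 split between libraries of the same genotype at 24 h, Mmp12 and Hmga1b lay lower in knock-out cells at 24 h, and CT010467.1 did not rise in knock-out cells.

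Of 6 genes of glycolysis and glycogen, all 6 were called higher at 24 h than at 0 h and at 4 h, and 3 (Pkm, Eno1 and Pgk1) higher than at 8 h. All 6 were also called higher at 8 h than at 0 h (against 60.0% of the 150 and 28.4% of all genes). The count against 8 h was 0 without replicate 23 and 1 without replicate 13, 16, 19, 20 or 22. Pkm, the last kinase of glycolysis, held 5500.4 and 6292 CPM at 24 h and 2834, 2263 and 2917 CPM at 8 h in knock-out cells, a log2 change of 0.89 ± 0.22 (SE; edgeR adjusted p = 0.012). Without replicate 23 it was 0.74, and that of Eno1 was 0.68 and that of Pgk1 0.46, with 0 of the 3 called. Tpi1, triosephosphate isomerase, missed the threshold against 8 h (0.71 ± 0.33 (SE; edgeR adjusted p = 0.12)). Among its 8 h libraries replicate 20 was the lowest, with 461, 207 and 534 CPM. Eno1 has a near-identical copy, Eno1b, also among the 150, so reads may be shared between them.

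Of 5 hypoxia-responsive genes, 4 were called higher at 24 h than at 0 h, 5 than at 4 h and 1 (Ero1l, an oxidase of disulfide formation) than at 8 h. Against 8 h, 60.7% of the 150 and 16.8% of all genes were called higher. At 8 h, 3 (Egln3, Ak4 and Ero1l) were called higher than at 0 h. The call of Ero1l against 8 h was lost without replicate 23 (0.68). Egln3 encodes a prolyl hydroxylase that marks HIF proteins for degradation and is itself a HIF target. It had 1.83, 1.56 and 1.78 CPM untreated, 0.394, 0.731 and 0.653 CPM after 4 h, 10.96, 3.001 and 14.5 CPM after 8 h and 18.5 and 15.7 CPM after 24 h in knock-out libraries. In wild-type libraries it had 2.29, 2.11 and 1.67 CPM untreated, 0.6004, 0.389 and 0.315 CPM after 4 h, 16.5, 19.5 and 1.21 CPM after 8 h and 13.2, 13.2 and 66.4 CPM after 24 h. Replicate 12 alone carried the wild-type 24 h mean, and replicates 10 and 11 lay below 2 of the 3 libraries at 8 h. P4ha2, a collagen prolyl hydroxylase, had 7.89 and 8.82 CPM in knock-out cells at 24 h, a log2 change of 0.45 ± 0.22 (SE; edgeR adjusted p = 0.14) against 8 h. In wild-type cells it had 6.199, 5.91 and 39.2 CPM at 24 h and 5.11, 7.24 and 3.102 CPM at 8 h. Without replicate 12, Egln3, P4ha2, Ero1l, Ak4 and Fam162a all left the list of 150.

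The windows of P4ha2 (chr11:54100674-54100973, plus strand) and Egln3 (chr12:54203825-54204124, minus strand) are printed for the core letters of the hypoxia response element, ACGTG, in capitals. These letters were found in 36 of 116 members' windows (31.0%, against 19.7% of all genes), and in 3 of the 12 windows of genes that were high in replicate 12.
P4ha2: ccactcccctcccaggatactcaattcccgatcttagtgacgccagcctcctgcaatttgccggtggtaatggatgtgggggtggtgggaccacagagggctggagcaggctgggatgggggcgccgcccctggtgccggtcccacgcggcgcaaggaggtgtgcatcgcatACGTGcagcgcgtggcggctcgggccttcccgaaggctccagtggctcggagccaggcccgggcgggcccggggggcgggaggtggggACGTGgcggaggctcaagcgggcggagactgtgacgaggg
Egln3: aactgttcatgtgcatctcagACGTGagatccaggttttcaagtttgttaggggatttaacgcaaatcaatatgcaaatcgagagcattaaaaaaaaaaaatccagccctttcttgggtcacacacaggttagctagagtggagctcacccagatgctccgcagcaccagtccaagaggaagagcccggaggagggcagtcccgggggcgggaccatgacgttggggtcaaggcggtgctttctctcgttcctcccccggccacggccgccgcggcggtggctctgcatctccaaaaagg

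Of 4 receptors of the IL-1 and TNF families, 4 were called higher than at 0 h and 1 higher than at 8 h. The shares of the 150 were 90.7 and 60.7%, and those of all genes 21.9 and 16.8%. Tnfrsf23, a decoy receptor for TRAIL in mice, had 10.4, 10.1 and 9.64 CPM untreated, 3.72, 4.07 and 2.98 CPM after 4 h, 10.8, 3.75 and 13.5 CPM after 8 h and 45.1 and 46.6 CPM after 24 h in knock-out libraries. At 24 h wild-type libraries held 86.6, 77.6 and 80.97 CPM. It was highest at 24 h, with a log2 change of 2.04 ± 0.37 (SE; edgeR adjusted p = 0.0027) against 8 h. Of the 4 it was the only one called in all 3 comparisons. The lower level at 4 h than at 0 h was not called (-0.83 ± 0.35 (SE; edgeR adjusted p = 0.061), log2). Its neighbour Tnfrsf26, also a decoy receptor, missed the threshold against 8 h (1.53 ± 0.55 (SE; edgeR adjusted p = 0.054)), with 36.2 and 40.5 CPM at 24 h, above all earlier knock-out libraries. Il1r1, the signalling receptor for IL-1, was not called against 8 h (0.58 ± 0.61 (SE; edgeR adjusted p = 0.5)): knock-out libraries held 11.98 and 17.97 CPM at 24 h and 10.05, 2.905 and 12.4 CPM at 8 h. Il1rl2, the IL-36 receptor, had a log2 change of -0.15 ± 0.47 (SE; edgeR adjusted p = 0.83).

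The 4 MHC class I genes of the H2-Q region on chromosome 17 were all called higher than at 0 h (90.7% of the 150 and 21.9% of all genes were). Their median log2 change was 3.04, and 1 was called higher than at 8 h (60.7 and 16.8% were). That gene, H2-Q6, had 152 and 172 CPM at 24 h and 39.5, 22.3 and 34.3 CPM at 8 h in knock-out cells, a change of 2.08 ± 0.296 (SE; edgeR adjusted p = 0.00069). These genes are close copies and reads may be split among them. Ly6a, the surface protein Sca-1 that interferons induce, had 9.42, 4.03 and 5.38 CPM untreated, 14.9, 8.26 and 9.51 CPM after 4 h, 118, 74.4 and 103 CPM after 8 h and 607 and 423 CPM after 24 h in knock-out libraries. The 24 h libraries were the highest, and the log2 change against 8 h was 2.12 ± 0.37 (SE; edgeR adjusted p = 0.002).

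Of 9 genes of transcription and chromatin, 9 were called higher than at 0 h, 4 higher than at 8 h and 3 in all 3 comparisons. The shares of the 150 were 90.7, 60.7 and 52.0%, and those of all genes 21.9, 16.8 and 3.31%. Klf4, a factor of monocyte differentiation, was high at 4 h, low at 8 h and high again at 24 h, with 11.5, 10.5 and 11.5 CPM untreated, 25.8, 16.3 and 25.8 CPM after 4 h, 5.91, 4.07 and 6.03 CPM after 8 h and 35.5 and 31.6 CPM after 24 h in knock-out libraries. L3mbtl3, a chromatin reader, was already low at 4 h, with 4.36, 3.83 and 4.82 CPM at 4 h and 14.99, 12.6 and 17.6 CPM at 0 h. It had 20.2 and 27.4 CPM at 24 h and 5.24, 3.05 and 5.301 CPM at 8 h, a log2 change of 2.15 ± 0.28 (SE; edgeR adjusted p = 0.00043). Ahr, the aryl hydrocarbon receptor, was not called against 8 h (1.09 ± 0.43 (SE; edgeR adjusted p = 0.075)). Glis3, a zinc finger factor, had 10.8 and 61.2 CPM in knock-out and 28.7, 25.2 and 111 CPM in wild-type cells at 24 h, so its call (1.91 ± 0.51 (SE; edgeR adjusted p = 0.017)) rests on replicate 23, without which the change was 0.10.

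Some members stand outside these groups. The highest fold change against 8 h in knock-out cells belonged to Eps8, an actin-capping protein. Its libraries held 37.8, 36.8 and 36.2 CPM untreated, 4.602, 2.29 and 6.36 CPM after 4 h, 2.12, 1.57 and 2.94 CPM after 8 h and 79.3 and 28.1 CPM after 24 h. Eps8 had been high untreated and nearly vanished by 8 h, so 24 h was a return: it was called against 4 and 8 h (4.33 ± 0.495 (SE; edgeR adjusted p = 0.00026)) but not against 0 h (0.79 ± 0.45 (SE; edgeR adjusted p = 0.18)). Syn1, known as a synaptic vesicle phosphoprotein of neurons, had 48.04 and 21.3 CPM at 24 h and 3.92, 1.84 and 3.06 CPM at 8 h in knock-out cells (3.29 ± 0.39 (SE; edgeR adjusted p = 0.00029)). Wild-type libraries held 44.5, 40.4 and 7.46 CPM of Syn1 at 24 h, replicate 12 being the lowest. Saa1, an acute-phase serum amyloid, had the lowest change against 8 h, at -0.82 ± 0.35 (SE; edgeR adjusted p = 0.1). Its knock-out libraries held 0, 0 and 0 CPM untreated, 1.501, 1.44 and 1.52 CPM after 4 h, 15.7, 17.3 and 14.4 CPM after 8 h and 5.98 and 15.1 CPM after 24 h, so the 24 h mean was at least 432-fold higher than 3 counts over the 3 untreated libraries would give.

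**Figure D4:**
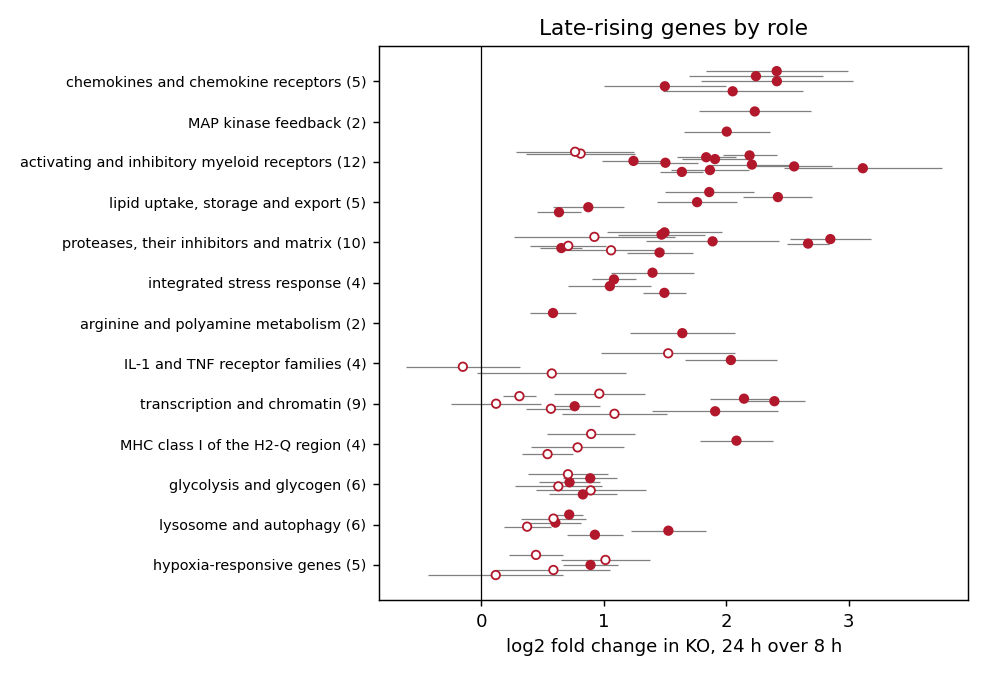
Log2 fold change at 24 h against 8 h in knock-out cells (horizontal, with standard error) for the members with an assigned role, by group (number of genes in brackets). Filled points passed an adjusted p under 0.05 by edgeR; all 5 chemokine genes are filled, and 1 of 5 hypoxia-responsive genes is.

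The 6 genes called in 0 of the 3 knock-out comparisons were Tspan13, CT010467.1, Lars2 and the predicted loci Gm24270, Gm23935 and Gm15564 (the predicted loci were named after their values were seen). CT010467.1 is annotated as ribosomal RNA. Its knock-out libraries held 4206, 2170.5 and 3968 CPM untreated, 2003, 1137 and 2238 CPM after 4 h, 3279, 1853 and 4129.7 CPM after 8 h and 3272 and 2522 CPM after 24 h. Wild-type libraries held 2024, 1323 and 1370.2 CPM untreated, 911, 804 and 944 CPM after 4 h, 2193, 1581 and 2548 CPM after 8 h and 7825, 2477 and 5615 CPM after 24 h. Replicate 10 was the highest of the 3 wild-type 24 h libraries and replicate 11 the lowest, at about the 8 h level. Lars2, the mitochondrial leucyl-tRNA synthetase, and the 3 predicted loci showed the same order: replicate 10 over replicate 11 was 2.53 for Lars2 and 2.35 to 2.70 for the loci, against 3.16 for CT010467.1. In untreated cells these 5 genes stood at 1.51 to 2.19 times the wild-type mean in knock-out cells. At 24 h they stood at 0.546 to 0.651 times it. The part of single libraries in their wild-type rise was not tested.

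Libraries of one genotype differed in a shared set of members. In 13 genes wild-type replicate 12 was over 2 times both other libraries, among them Glis3, Marco, Egln3, P4ha2, Ak4 and Saa1. In 19 genes it was more than 2 times below both, among them Clec4n, Ccr1, Mmp8, Syn1, Pf4, Ppbp, Cd36 and Ctsl. The same bounds held in 2.63 and 2.70% of genes at 10 CPM. Knock-out replicate 23 lay above replicate 22 in 11 of the 13 genes, with a median of 2.52 times, and below it in 16 of the 19, with a median of 0.554 times. Over all 150 genes the median of replicate 23 over replicate 22 was 1.01. Among the 19 genes, knock-out replicates 14, 17 and 20 were the lowest of their times in 8, 12 and 16 genes, and wild-type replicates 3, 6 and 9 in 12, 14 and 11. Among the 13, the knock-out replicates were the highest in 9, 10 and 3 genes and the wild-type ones in 8, 8 and 2. At 8 h the order of the 13 turned, with knock-out replicate 20 the lowest in 9 genes and wild-type replicate 9 in 8. Among the 19, replicate 14 was the highest in 7 genes, nearly as often as the lowest. In any gene 1 of 3 libraries is the lowest, and no share over all genes was taken for these earlier times. The labels give no batch, and what these libraries share was not tested. With a term for the set of replicates 14, 17, 20 and 23 in the knock-out fit, 111 genes were called higher than at 8 h and 105 in all 3 comparisons, against 91 and 78 without the term.

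**Figure D5:**
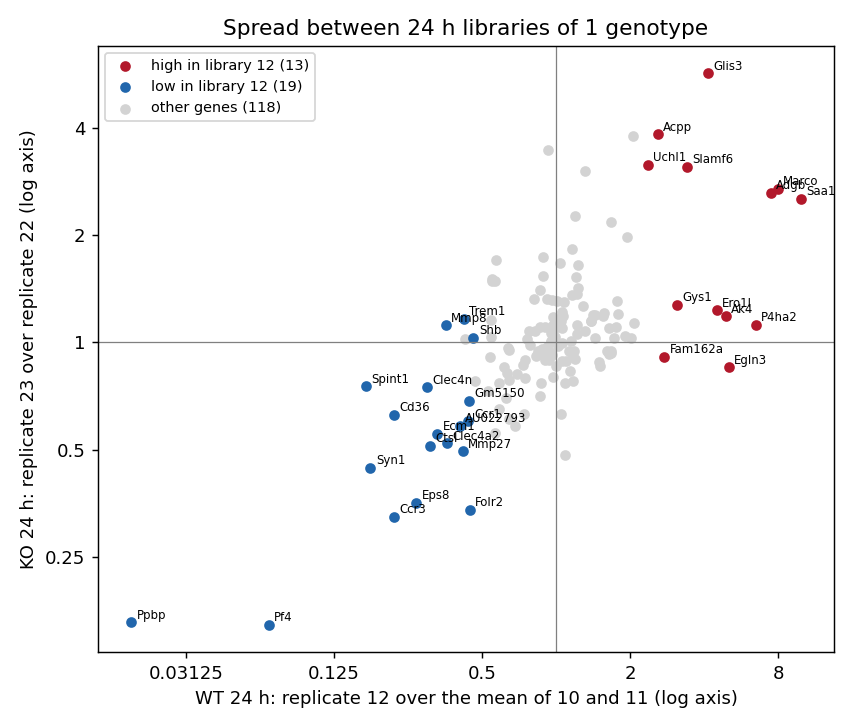
For each of the 150 genes, knock-out replicate 23 over replicate 22 (vertical) against wild-type replicate 12 over the mean of replicates 10 and 11 (horizontal), at 24 h, both on log2 axes. Genes that were over 2 times both other wild-type libraries in replicate 12 (red, 13) or more than 2 times below both (blue, 19) are named; 11 of the 13 lie above 1 in the vertical direction and 16 of the 19 below it.

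Knock-out and wild-type levels are given side by side without a test, because choosing genes that were high at 24 h in wild-type cells favours a ratio under 1 there. The median ratio of knock-out to wild-type means, each plus 1 CPM, over the 150 genes was 1.01 in untreated cells, then 0.981 at 4 h, 1.05 at 8 h and 0.844 at 24 h. At 24 h, 106 genes lay below 1 (against 46.4% of genes at 10 CPM, whose median was 1.01), and 11 lay more than 2-fold below. In 42 genes both knock-out libraries lay below all 3 wild-type ones (16.02% of genes at 10 CPM did), and in 11 both lay above (16.8% did). On the same scale Mmp12 stood at 0.334 times its wild-type mean at 24 h, Thbs1 at 0.347, Sema3c, a semaphorin, at 0.322 and Il1r1 at 0.361. Untreated, Mmp12 stood at 1.28 and Thbs1 at 1.597, while Sema3c, at 0.324, and Il1r1, at 0.3795, were already low. Emilin2 stood at 0.335 at 24 h and already at 0.685 untreated.

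Of a pair of near-identical genes, Hmga1b differed between the labels at every time, and Hmga1 is given at 24 h only. Hmga1b, a copy on chromosome 11 of the chromatin protein gene Hmga1 on chromosome 17, had 10.2, 13.3 and 11.96 CPM untreated, 12.1, 10.1 and 13.3 CPM after 4 h, 19.8, 14.4 and 19.5 CPM after 8 h and 31.8 and 40.3 CPM after 24 h in knock-out libraries. Wild-type libraries had 66.7, 66.1 and 128 CPM untreated, 53.4, 48.6 and 55.4 CPM after 4 h, 137, 125 and 75.6 CPM after 8 h and 223, 184 and 260.3 CPM after 24 h. Every knock-out library was below every wild-type library of its time. Hmga1 went the other way, with 297 and 342 CPM in knock-out and 155, 141 and 206 CPM in wild-type cells at 24 h. Within knock-out cells the log2 change against 8 h was 0.76 ± 0.21 (SE; edgeR adjusted p = 0.017) for Hmga1b and 0.57 ± 0.21 (SE; edgeR adjusted p = 0.055) for Hmga1. That of Hmga1b was not called without replicate 20 (0.63) or 23 (0.53). Reads may be shared between the copies, so the level of each is uncertain.

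Lists of whole pathways, chosen with earlier results of these data known, set the 150 genes beside their pathways. Of 22 inflammatory cytokine genes tested in knock-out cells, 0 were called higher and 13 lower at 24 h than at 8 h, with a median log2 change of -2.13, and 0 were among the 150. At an unadjusted p under 0.05, 0 were higher, and DESeq2 and limma-voom also called 0. Chemokine genes split, with 4 of 23 higher and 10 lower (median -0.48); 3 of the 23 were among the 150. Glycolysis genes had 7 of 23 higher and 4 lower against 8 h (median 0.38), and 16 higher and 4 lower against 4 h (median 1.28). Of 19 matrix protease genes, 6 were higher and 4 lower against 8 h, and 5 were among the 150. Scavenger and phagocytic receptors had 3 of 22 higher and 10 lower (median -0.56). Unfolded protein and amino acid stress genes had 4 of 24 higher and 5 lower (median 0.10), and lysosomal genes 4 of 28 and 3 (median 0.009). Hypoxia genes had 2 of 21 higher and 3 lower (median 0.30), and arginine metabolism genes 2 of 14 and 3 (median -0.36). Cholesterol and lipid genes had 7 of 23 higher and 6 lower (median -0.29), and matrix and wound repair genes 1 of 31 and 11 (median -0.71). All genes tested had 16.8% higher and 17% lower in this comparison. Without replicates 13, 16, 19 and 22, the higher and lower counts against 8 h were 0 and 1 for inflammatory cytokines, 0 and 1 for chemokines, 0 and 0 for glycolysis, 2 and 1 for matrix proteases and 0 and 2 for scavenger receptors, with 79 and 178 of all genes. The median log2 change of the cytokine genes was then -1.62.

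In genome position, 52 of the 150 genes lay in 21 runs of neighbours, each within 100000 bases of the next member. On chromosome 6 these were Clec4a2 and Clec4n, on chromosome 9 Mmp8 with Mmp27, on chromosome 7 Tnfrsf26 and Tnfrsf23, and on chromosome 15 Ly6i and Ly6a. Some runs hold genes with shared exons, over which reads were counted for each gene. Members shared exon bases in 14 pairs that held 23 genes, among them Itgam, the CD11b integrin chain, with Gm49368. Hyal1 shared 50.8% of its exon bases with Naa80, and Folr2 shared 63.1% with Gm10602, neither partner being a member. Protein-coding genes made up 130 of the 150 (86.7%, against 93.9% of genes at 10 CPM). Exonic length had a median of 3127 bases, against 4539 bases.

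Of the 150 genes, 116 had a promoter window in the RefSeq table (GRCm38.p6). Their median GC content was 55.7%, against 52.7% over all genes in the table. For a member the window nearest its annotated start was taken. For all genes it was the first window listed, whether or not the gene was expressed here. The GC and motif shares, here and above, therefore compare unlike sets of windows. Each of the pair of Ddit3 entries was counted. Motifs were searched on both strands. The NF-kB letters, GGG followed after 5 bases of any kind by CC, stood in 64.7% of members' windows against 50.4% of all, the GC box GGGCGG in 44.0 against 35.9%, the short cAMP response element TGACG in 27.6 against 21%, and the C/EBP letters TTNCNNAA in 44.8 against 40.7%. Less frequent in members were the STAT6 letters, TTC and GAA 4 bases apart (3.45 against 6.99%), and the antioxidant response letters TGACNNNGC (8.62 against 12.5%). The other motifs lay within 3 points of all genes. Among them were the nuclear receptor site AGGTCA (14.7 against 16%), AP-1 (TGANTCA, 10.3 against 7.93%) and the TATA box (TATAAA, 16.4 against 14.2%). The interferon-stimulated element, a pair of GAAA runs 2 bases apart, stood in 6.03 against 3.49%. The rest were the E-box (CACGTG), the G form of the hypoxia element (GCGTG), STAT letters (TTC and GAA 3 bases apart), the full cAMP response element (TGACGTCA) and the C/EBP palindrome (TTGCGCAA). CACGTG holds ACGTG, and TGACGTCA holds TGACG. Members without such letters in the window say nothing of the factor.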

How the data were processed

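RNA of 23 libraries was sequenced as 100-base paired-end reads, per the labels. The deposited values are raw counts per gene. Per the file headers, they were made with featureCounts 2.0.1 on an Ensembl 101 annotation of GRCm38, without strand, with reads over several genes counted for each. The submitters' processing notes also name HISAT2, whose version is not given in the sources used here, and DESeq2. The CPM levels printed are counts over the column total. Tests used edgeR 4.0.16 in R 4.3.3: the 11 knock-out libraries were fitted with 1 mean per time, TMM scaling, the tool's filter on low counts, the quasi-likelihood test and Benjamini-Hochberg adjustment over all 17439 genes kept, called at an adjusted p under 0.05. TMM factors were 1.24 to 1.37 at 0 h, 0.780 to 0.898 at 4 h, 0.894 to 0.904 at 8 h, and 1.106 and 1.041 at 24 h, so fitted folds differ from ratios of CPM. Wild-type libraries stayed out of the fit, since they chose the genes. A count of 0 was bounded by 3 counts.

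The members, lists and alternatives were chosen with earlier results of these data known. Genes that could be named are the 20 highest ratios, members of the fixed lists, the 5 highest and 5 lowest changes against 8 h and the genes at rank 150; members with an assigned role were added after their values were seen. The text prints part of these, and 1 gene is not reported here. Windows, motifs and sequences come from RefSeq. Alternatives were DESeq2 1.42.0, limma 3.58.1 (voom), other scalings, filters, thresholds, samples and a library-set term.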

Additional observations from a re-analysis of the deposited data

How the results depend on the processing

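No paired analysis was possible because the running numbers of the libraries are not shared between groups. A term for the set of knock-out replicates 14, 17, 20 and 23, taken from how the libraries deviate and not from the labels, gave 111 members higher at 24 h than at 8 h and 105 in all 3. Under DESeq2, limma-voom, other scalings and other filters, each count of members kept its direction and stayed within 1.5 times; over all results and alternatives, 4917 stayed on their side of the threshold, 310 lost it, 76 gained it and 21 changed sign. Tested against a fold of 1.5, 49 members were called higher at 24 h than at 8 h and 37 in all 3 comparisons, with 18 lower at 4 h and 5 lower at 8 h than at 0 h; all genes called higher numbered 1703, 2825 and 752 against 0, 4 and 8 h. At an adjusted p under 0.01, 50 were called against 8 h and 40 in all 3, and all genes numbered 2539 against 0 h and 1485 against 8 h. Without replicates 13, 16, 19 and 22, 14 members were called against 8 h, 11 in all 3 and 17 lower at 4 h; all genes numbered 1492, 2020 and 79. The cause was not tested beyond the fewer libraries.

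Leaving out each knock-out library in turn gave 123 to 137 members higher than at 0 h, 106 to 128 than at 4 h, 57 to 106 than at 8 h and 49 to 91 in all 3. At 4 h, 44 to 57 were higher and 26 to 34 lower than at 0 h, and at 8 h 84 to 95 and 7 to 11. All genes ranged over 2564 to 4071, 4063 to 5301 and 1311 to 3235. The lowest counts against 8 h and in all 3 came without replicate 22.

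The list itself moved with the rule: 126 to 149 genes stayed when 1 wild-type library was left out (126 without replicate 12), 111 with TMM-scaled CPM, and 98 with the lowest 24 h library over the highest earlier one. The 91 genes in both the knock-out and the wild-type list came to 86 to 95 when 1 wild-type library was left out.

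Some log2 fold changes in knock-out cells changed sign, in most cases when 1 library was left out. Against 0 h, Lars2 ranged over -0.14 (without replicate 14) to 0.28 (without replicate 13) and Eps8 ranged over -0.075 (without replicate 22) to 1.37 (without replicate 23). Against 0 h, Lars2 came to -0.031 with upper-quartile scaling. Against 0 h, Eps8 came to -0.046 without replicates 13, 16, 19 and 22. Against 4 h, Ccr3 ranged over -0.22 (without replicate 22) to 1.33 (without replicate 23) and Cxcl3 ranged over -0.36 (without replicate 23) to 1.22 (without replicate 17). Against 4 h, Klf4 ranged over -0.0796 (without replicate 17) to 0.29 (without replicate 18) and Ppbp ranged over -0.042 (without replicate 22) to 2.50 (without replicate 23). Against 4 h, Ccr3 came to -0.19 without replicates 13, 16, 19 and 22. Against 8 h, Il1rl2 ranged over -0.71 (without replicate 23) to 0.30 (without replicate 21) and Kdm5b ranged over -0.0302 (without replicate 20) to 0.22 (without replicate 21). Against 8 h, Ak4 ranged over -0.27 (without replicate 20) to 0.45 (without replicate 21) and Lars2 ranged over -0.49 (without replicate 20) to 0.018 (without replicate 21). Against 8 h, Serpinb2 ranged over -0.31 (without replicate 23) to 1.58 (without replicate 22) and Marco ranged over -0.16 (without replicate 23) to 1.37 (without replicate 22). Against 8 h, Slamf6 ranged over -0.29 (without replicate 23) to 1.43 (without replicate 22). Against 8 h, Il1rl2 came to 0.31 without replicates 13, 16, 19 and 22. Depth limits little here, since 0 counts in a library allow at most 0.0769 CPM; with 2 libraries at 24 h, the spread between them does.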
